A study of Mus musculus with 37 samples.

Results

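The immediate early genes described here are Fos, Fosb, Jun, Junb, Egr1, Egr2, Egr3, Atf3, Ier2 and Dusp1. The 10 were taken by symbol from a table of 25239 genes, and all 10 of 10 were found. Their read counts were measured in 37 RNA-seq libraries of mouse hearts at embryonic day 10.5, as a reading of handling and of acute signalling in the tissue. Fathers carried Stra8-iCre, a recombinase active in male germ cells, with Nipbl Flox/+. Embryos labelled Nipbl +/- received a null FIN allele of Nipbl, which encodes the cohesin loader. The other embryos kept working copies only, and their titles do not tell a plain from a working Flox copy. Mothers were Isl1 Cre/+, with Cre placed in and inactivating 1 copy of Isl1, a transcription factor of cardiac progenitors. The 4 genotypes were Nipbl +/+; Isl1 +/+ (wild-type, n = 10), Isl1 +/- (n = 9), Nipbl +/- (n = 9) and Nipbl +/-; Isl1 +/- (double heterozygous, n = 9). The Isl1 +/- and double heterozygous embryos therefore also carried Cre, and the labels tie no library to a litter, so the p-values measure the spread between these libraries.

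Each library also carries a set number and a number within the set. Sets 1, 2, 5, 6 and 7 held 6, 9, 14, 7 and 1 libraries. What a set stands for beyond its prefix IVF is not given. Set 1 held no embryo that lacks a Nipbl copy. Set 7 is double heterozygous replicate 2 alone, which the set term fits exactly, so double heterozygous comparisons rest on 8 libraries. Depth was 23356831 to 50974736 counts per library. All values below are CPM, counts scaled to a common library total, after TMM scaling, and the spread is between libraries. The hearts expressed their defining genes: 8 cardiomyocyte markers summed to 24320 to 39110 CPM and none was at 0 in any library.

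The level of Nipbl itself was checked first. It was 47.64 to 78.84 CPM in wild-type hearts, 52.0 to 72.93 in Isl1 +/- hearts and 28.23 to 51.55 in double heterozygous hearts, of which replicate 2, at 51.55, lay within the wild-type range. In 8 Nipbl +/- libraries it was 27.1 to 44.9 CPM, but the library labelled Nipbl +/- replicate 2 had 72.42 CPM, within the wild-type range. That library also stood apart elsewhere: 4711 of the 15046 genes tested (31.3%) lay over 2-fold from the median of the other 36 libraries, against at most 7.12% in any other library. Results that it changes are given with and without it. Isl1 RNA in Isl1 +/- hearts (4.382 to 10.36 CPM) overlapped that in wild-type hearts (5.03 to 13.0), and edgeR put the difference at -0.20 on the log2 scale (adjusted p = 0.877, SE 0.18). Double heterozygous hearts, which also lack a copy of Isl1, had 4.798 to 15.14 CPM, 0.32 above wild-type (SE 0.20, adjusted p = 0.591), and Nipbl +/- hearts had 9.112 to 17.5, called higher by 0.79 (SE 0.19, adjusted p = 0.0252). Isl1 RNA therefore does not check the Isl1 labels.

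Immediate early genes are transcribed within minutes of a stimulus, without new protein synthesis. Growth factors, depolarization, stretch, hypoxia or tissue dissection reach them through ERK and p38 kinases, which act on serum response factor with its ternary complex partners at CArG boxes, and through CREB at cyclic AMP response elements. Fos, Fosb, Jun and Junb encode subunits of the AP-1 dimer, and Atf3 encodes a stress-induced relative that pairs with Jun proteins. Egr1, Egr2 and Egr3 encode zinc-finger factors that bind GC-rich sites. Ier2 encodes a nuclear protein of the same early wave, and Dusp1 encodes the phosphatase that switches the kinases off again. Because heart dissection is itself a stimulus, the RNA of these genes is widely read as a mark of how a sample was handled.

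Sequences that feed this response were looked for only in the 250 bases before transcription starts. Sites farther away were not searched. RefSeq windows were found for 7 of the 10 members, all but Ier2, Egr1 and Egr3. The 250 bases before the start of 4 of them are shown, since Fos, Junb and Atf3 were far above the others in 1 library and Dusp1 differed by set (assembly GRCm38.p6, 5′ to 3′ on the gene's strand). The windows are chr12:85473640-85473889 on the plus strand for Fos, and on the minus strand chr8:84978749-84978998 for Junb, chr1:191183334-191183583 for Atf3 and chr17:26508473-26508722 for Dusp1. Capitals mark matches to the motifs named after the sequences.
Fos: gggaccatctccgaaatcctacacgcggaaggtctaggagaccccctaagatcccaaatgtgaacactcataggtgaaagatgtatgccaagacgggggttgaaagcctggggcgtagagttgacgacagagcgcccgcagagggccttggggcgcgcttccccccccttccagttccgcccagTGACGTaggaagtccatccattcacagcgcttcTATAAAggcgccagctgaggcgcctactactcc
Junb: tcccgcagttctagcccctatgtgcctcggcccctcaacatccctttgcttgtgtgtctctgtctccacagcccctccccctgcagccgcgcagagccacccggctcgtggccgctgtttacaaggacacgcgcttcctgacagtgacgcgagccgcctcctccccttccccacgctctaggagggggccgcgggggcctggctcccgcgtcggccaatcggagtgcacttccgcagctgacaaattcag
Atf3: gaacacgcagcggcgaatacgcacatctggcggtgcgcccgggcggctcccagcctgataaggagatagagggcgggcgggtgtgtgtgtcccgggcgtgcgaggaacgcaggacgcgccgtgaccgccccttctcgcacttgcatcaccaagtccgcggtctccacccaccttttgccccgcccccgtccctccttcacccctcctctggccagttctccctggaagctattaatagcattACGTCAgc
Dusp1: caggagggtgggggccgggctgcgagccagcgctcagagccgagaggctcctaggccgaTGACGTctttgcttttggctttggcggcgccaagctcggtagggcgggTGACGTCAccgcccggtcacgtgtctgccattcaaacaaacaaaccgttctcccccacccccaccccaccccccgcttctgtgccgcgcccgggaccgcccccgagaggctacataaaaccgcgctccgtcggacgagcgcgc

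The 6 motifs searched were matched on both strands: the CArG box by name, the cyclic AMP response element TGACGTCA, its first 6 letters TGACGT, which lie within it, the AP-1 site TGANTCA, the EGR site GCGNGGGCG and the TATA box TATAAA. The Fos window held TGACGT 66 to 61 bases before the start and TATAAA 33 to 28 bases before it. The Dusp1 window held a whole TGACGTCA at 143 to 136 bases and a further TGACGT at 191 to 186 bases. The Atf3 window held TGACGT on the opposite strand, 8 to 3 bases before the start, and the Junb and Jun windows held none of the 6. The Fosb window held the EGR site 50 to 42 bases before the start. Egr2 has 5 windows, and 4 of them held a CArG box. In 3 of these, which overlap one another, it was the same CCATATATGG, with the same TGACGT on the opposite strand. Among 32851 windows of the same length, 6.47% held TGACGT, 1.55% TGACGTCA, 12.4% TATAAA, 6.75% the AP-1 site, 4.7% the EGR site and 1.47% a CArG box. The Atf3 and Dusp1 windows lie inside longer GENCODE models of those genes, and no match or its absence speaks to binding.

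In wild-type hearts the members spanned from among the most to among the least abundant of the genes tested. Per kilobase of exon, Ier2 stood highest at 49.58 ± 6.55 CPM/kb (SD, n = 10), above 92.7% of the 15046 genes, and Jun came next at 26.09 ± 5.16 CPM/kb. Atf3 (7.30 ± 1.15), Dusp1 (6.98 ± 1.11) and Junb (4.29 ± 0.70 CPM/kb) followed, near the median gene at 4.34 CPM/kb. Egr1 (2.55 ± 0.78) and Fos (2.25 ± 0.29 CPM/kb) lay below it. Egr3, Fosb and Egr2 were at the bottom, at 0.11 ± 0.05, 0.09 ± 0.04 and 0.04 ± 0.03 CPM/kb. The ranges of Ier2 and Jun overlapped neither each other nor any other member, whereas neighbours from Atf3 to Fos and from Egr3 to Egr2 overlapped. Egr2 had 1 to 11 reads per library and was the member that failed the filter on low counts, which left 9 tested. The gene models of Jun, Junb and Dusp1 overlap Junos, Prdx2 and Ergic1 on the opposite strand, and that of Atf3 overlaps Gm24748. The Dusp1 model also overlaps Gm8225 on the opposite strand, and AC122252.4 and AC122252.1 on its own strand. Whether counting used the strand is not given in the sources used here, so reads of these partners cannot be told apart. For the same-strand partners of Dusp1, strand would not separate the reads.

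None of the 9 tested members was called between genotypes. The count was 0 of 9 for Isl1 +/- against wild-type (0.0% of all genes tested were called), for Nipbl +/- (1.71%) and for double heterozygotes (2.6%), in edgeR's quasi-likelihood test with set as covariate and Benjamini-Hochberg adjustment over 15046 genes at 0.05. It was also 0 for double heterozygotes against Isl1 +/- (0.957%) and against Nipbl +/- (0.0%), for the interaction of the 2 losses (0.0%) and for any genotype difference (2.87%). At an unadjusted p under 0.05 there was 1 member for Nipbl +/- (2267 of all 15046 genes), 1 for double heterozygotes (1739), 1 for double heterozygotes against Nipbl +/- (1355) and 1 for any genotype difference (2175). These were Jun for double heterozygotes against wild-type and Junb for the other 3, and the remaining comparisons had 0 (411 to 1127 genes). DESeq2 called none of the members, in the same order against 0.0731%, 3.05%, 3.46%, 1.56%, 0.0%, 0.0% and 4.87% of all genes. In all 5 genotype pairs compared, each of the 10 members overlapped between the groups, with or without the library labelled Nipbl +/- replicate 2. Few genes of any kind separated: 0.0%, 0.173%, 0.405%, 0.319% and 0.0% of all genes tested did not overlap, for Isl1 +/-, Nipbl +/- and double heterozygotes against wild-type and for double heterozygotes against Isl1 +/- and Nipbl +/-, so the members' overlap is near the background. Without the library labelled Nipbl +/- replicate 2 the counts were also 0 of 9, in the same order against 0.0133%, 2.72%, 5.57%, 2.4%, 0.0%, 0.0% and 5.48% of all genes called. The members at an unadjusted p under 0.05 then numbered 1, 1, 1, 1, 0, 0 and 1, against 1781, 2212, 2900, 1786, 1162, 485 and 2865 of 15072 genes.

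**Figure D1:**
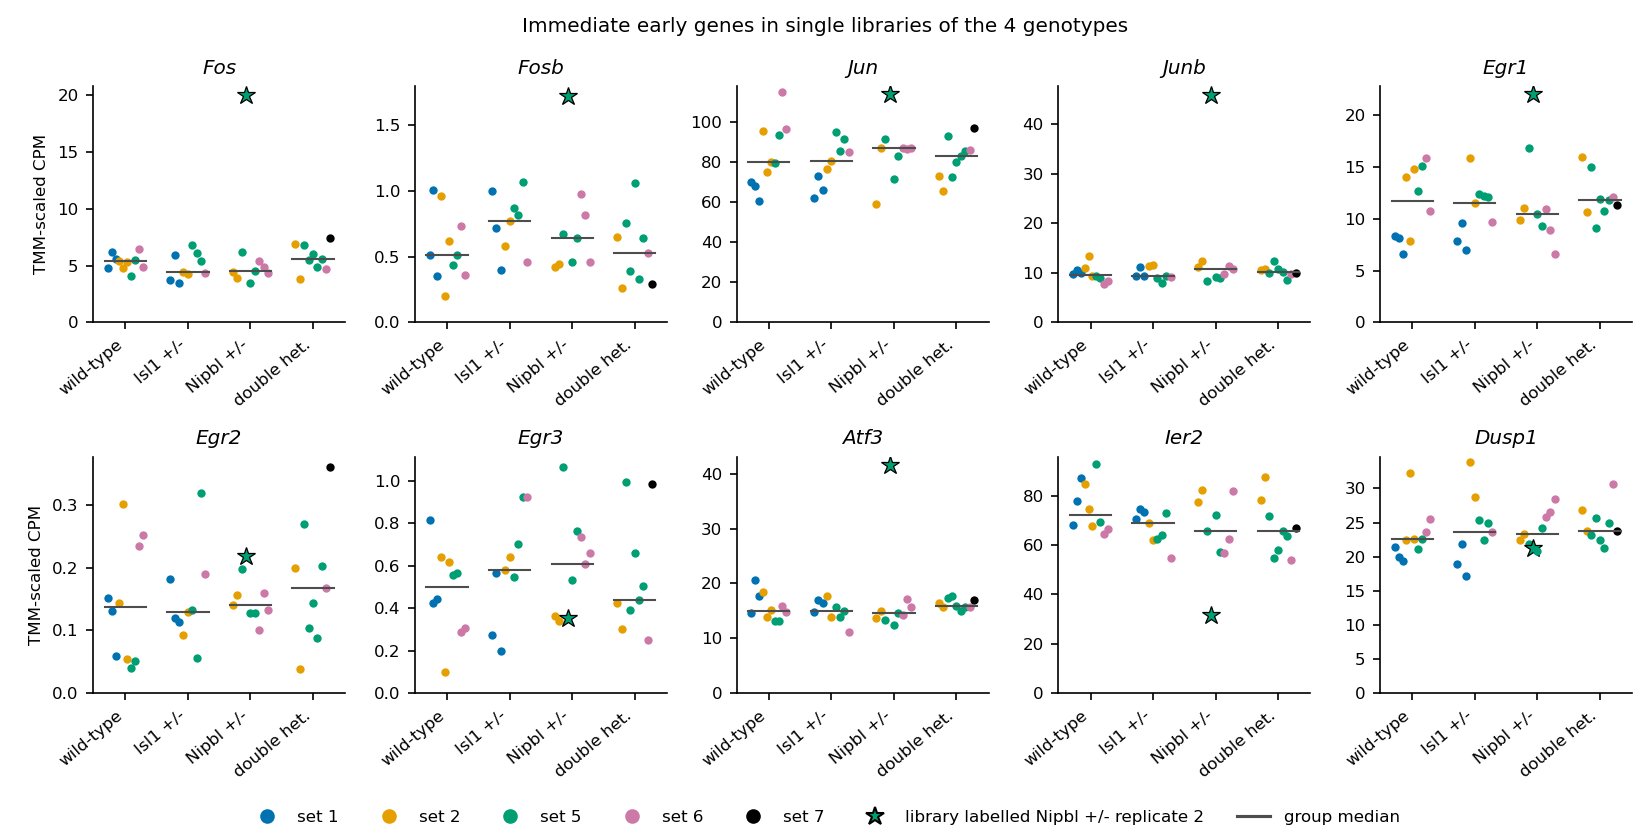
TMM-scaled CPM of the 10 members (1 panel each, linear axis from 0) in the 37 libraries by genotype; points are libraries coloured by set, bars are group medians and the star is the library labelled Nipbl +/- replicate 2. Apart from the star, which reaches 19.94 CPM for Fos and 45.74 for Junb, the genotypes overlap in every panel.

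Among the AP-1 genes, Fos ran from 4.119 to 6.411 CPM in wild-type hearts (median 5.367) and from 3.459 to 6.829 in Isl1 +/- hearts (4.431). Double heterozygous hearts had 3.845 to 7.448 CPM (5.563). Nipbl +/- hearts had 3.487 to 6.201 CPM (4.496) in 8 libraries and 19.94 in the remaining one. All groups overlapped, and the highest value after that of 19.94 CPM was the 7.448 of a double heterozygous library. Fosb stayed near 1 CPM or below in the other 36 libraries (0.2008 to 1.07), with medians of 0.5142 in wild-type, 0.7714 in Isl1 +/-, 0.5502 in the 8 other Nipbl +/- and 0.5292 CPM in double heterozygous hearts.

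Jun, the most abundant AP-1 member, ran from 60.58 to 114.9 CPM in wild-type hearts (median 79.72). Isl1 +/- hearts had 61.8 to 94.87 (80.12), the 8 other Nipbl +/- hearts 59.15 to 91.3 (86.43) and double heterozygous hearts 65.4 to 96.69 CPM (82.76), and the library labelled Nipbl +/- replicate 2 had 113.5. The medians differ little, and with set as covariate the double heterozygous estimate was -0.20 on the log2 scale (SE 0.08, 95% interval -0.37 to -0.03, p = 0.0225, adjusted p = 0.294 by edgeR). Within sets 2, 5 and 6 the same difference was -0.26, -0.06 and -0.30.

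Junb ran from 7.688 to 13.45 CPM in wild-type hearts (median 9.555), 7.969 to 11.6 in Isl1 +/- (9.315) and 8.463 to 12.41 in double heterozygous hearts (10.14). The 8 other Nipbl +/- libraries had 8.359 to 12.48 CPM (10.31), and the library labelled Nipbl +/- replicate 2 had 45.74. The Nipbl +/- estimate of 0.55 (SE 0.23, p = 0.0193, adjusted p = 0.225, edgeR) rested on that library: without it the estimate was 0.12 (SE 0.08, 95% interval -0.04 to 0.29, adjusted p = 0.544). Within sets 2 and 6 the Junb difference was 0.08 and 0.40, and in set 5 it was 0.53 with and -0.06 without the library. Atf3 spanned 13.07 to 20.69 CPM in wild-type (14.91), 11.15 to 17.66 in Isl1 +/- (14.99), 12.42 to 17.25 in 8 Nipbl +/- (14.41) and 15.03 to 17.78 in double heterozygous hearts (15.86).

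The EGR genes showed the same overlap. Egr1 had 6.589 to 15.85 CPM in wild-type hearts (median 11.73), 6.947 to 15.89 in Isl1 +/- (11.49), 6.569 to 16.87 in the 8 other Nipbl +/- (10.19) and 9.074 to 16.01 in double heterozygous hearts (11.83), with 22.04 in the library labelled Nipbl +/- replicate 2. Egr3 lay between 0.1004 and 1.067 CPM over all libraries, with group medians from 0.4388 to 0.6085, the last that of Nipbl +/- hearts (0.6343 without the library labelled Nipbl +/- replicate 2). Ier2 had 64.43 to 92.96 CPM in wild-type (72.14), 54.65 to 74.68 in Isl1 +/- (68.82), 56.69 to 82.47 in 8 Nipbl +/- (69.11) and 53.92 to 87.86 in double heterozygous hearts (65.71). Dusp1, the phosphatase, had 19.32 to 32.27 CPM in wild-type (22.57), 17.15 to 33.86 in Isl1 +/- (23.62), 20.82 to 28.49 in Nipbl +/- (23.28, or 23.77 without that library) and 21.3 to 30.61 in double heterozygous hearts (23.75).

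The 95% intervals give the range of differences that these libraries leave for each member. For Dusp1 and Jun, the members of least spread, the 95% intervals of the 3 changes against wild-type lay between -0.20 and 0.25 and between -0.37 and 0.10. For Fosb and Egr3 they reached from -0.77 to 0.91 and from -0.88 to 0.80, the widest in each of the 3 comparisons. Leaving out the library labelled Nipbl +/- replicate 2 narrowed the interval of Junb in Isl1 +/- hearts from -0.46 to 0.39 down to -0.15 to 0.15.

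**Figure D2:**
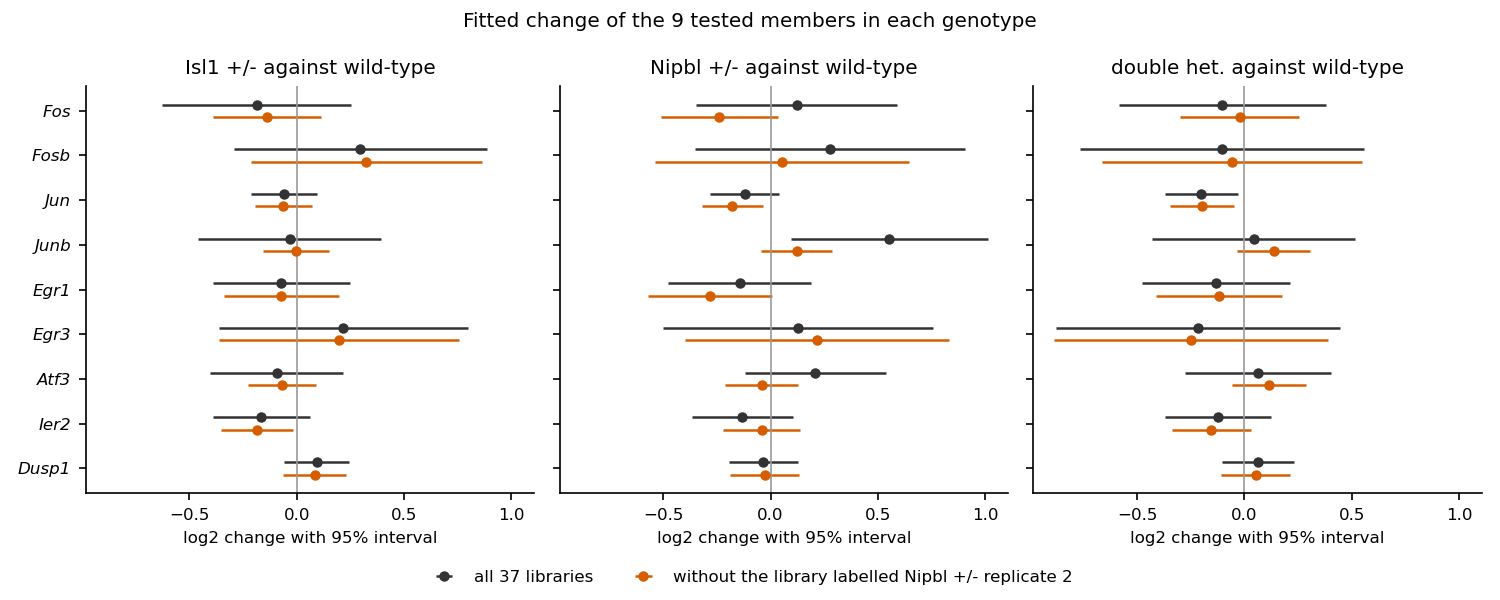
Fitted log2 change (x axis) of the 9 tested members against wild-type in Isl1 +/-, Nipbl +/- and double heterozygous hearts; points are estimates and bars 95% intervals, in black with all 37 libraries and in orange without the library labelled Nipbl +/- replicate 2. The Junb estimate in Nipbl +/- hearts goes from 0.55 to 0.12, and the bars of Fos, Junb and Atf3 shorten in all 3 panels.

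In the library labelled Nipbl +/- replicate 2, 5 of the 9 tested members were over 2-fold above the median of the other 36 libraries, where 16.2% of all genes were, and 1 was over 2-fold below, where 15.2% were. Junb had 45.74 CPM (1675 reads), against a median of 9.895 and a highest value of 13.45 elsewhere, a 4.62-fold difference. Fos had 19.94 CPM against 5.103 (3.459 to 7.448), and Fosb 1.721 against 0.5988 (0.2008 to 1.07). Atf3 had 41.67 CPM against 15.34 (11.15 to 20.69), and Egr1 22.04 against 10.98 (6.569 to 16.87). These 5 of 9 values were above those of every other library, as were 30.0% of all genes. Jun, at 113.5 CPM, was below the 114.9 of 1 wild-type library.

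Ier2 went the other way in that library: 31.73 CPM against a median of 68.41, below the lowest value elsewhere of 53.92. Dusp1 (21.27 CPM against 23.45), Egr3 (0.355 against 0.5598) and Egr2 (0.2185 against 0.1359, 8 reads) lay within the range of the others. So the members did not move as a block: the AP-1 genes Fos, Fosb and Junb with Atf3 and Egr1 were high while Ier2 was low. Against the 8 other Nipbl +/- libraries, 5 members were over 2-fold higher (15.7% of all genes) and 1 lower (15.2%). Against the 13 other libraries of set 5, 4 were higher (15.5%) and 1 lower (14.4%), with Egr1 at 1.83-fold. These are values of 1 library, with no replicate check.

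Genes of the wider early response also lay on both sides. Of 58 further genes of the early response that were tested (22 transcription factors and related early genes, 17 feedback inhibitors and 19 effectors), 24 (41.4%) were over 2-fold higher there and 8 (13.8%) over 2-fold lower. Above every other library were 33 of them (56.9%), where 30.0% of all genes were, and below every other were 10 (17.2%), where 27.7% of all genes were. The genes named next were chosen after their values were seen, as the most extreme. Bhlhe40, a clock and hypoxia repressor, had 476.2 CPM against a median of 14.0 (highest elsewhere 39.76). Ier3 had 146.6 against 7.110 CPM, Per1, a clock gene, 305.8 against 17.95, and the orphan nuclear receptor Nr4a3 10.16 against 0.5057 CPM.

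Of the 17 feedback inhibitors, 6 (35.3%) were over 2-fold higher and 1 (5.88%) lower in that library, and of the 19 effectors, 8 (42.1%) were higher and 1 (5.26%) lower. Zfp36, which speeds the decay of early messages, had 96.68 CPM against 14.7 there, and Gadd45b 120.9 against 14.61. The inducible chaperones Hspa1a (33.02 against 1.356 CPM) and Hspa1b (32.2 against 1.427) were 24.4-fold and 22.6-fold above the median; as near-identical copies they share reads, so their split is uncertain. Of the 14 heat shock genes, 5 were above and 5 below every other library, and Dnaja1, a co-chaperone gene, was the lowest relative to the median, at 88.92 CPM against 290.5. Among transcription factors Jund (120.7 against 309.2 CPM), Ier5 (18.13 against 44.08), Klf2 (13.49 against 31.29) and Myc (10.08 against 20.28) were below every other library. The 18 genes of the serum response factor complex and ERK pathway showed 2 higher (11.1%) and 3 lower (16.7%) at 2-fold, and the 14 heat shock genes 3 higher (21.4%) and 1 lower (7.14%), against 16.2% higher and 15.2% lower of all genes.

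**Figure D3:**
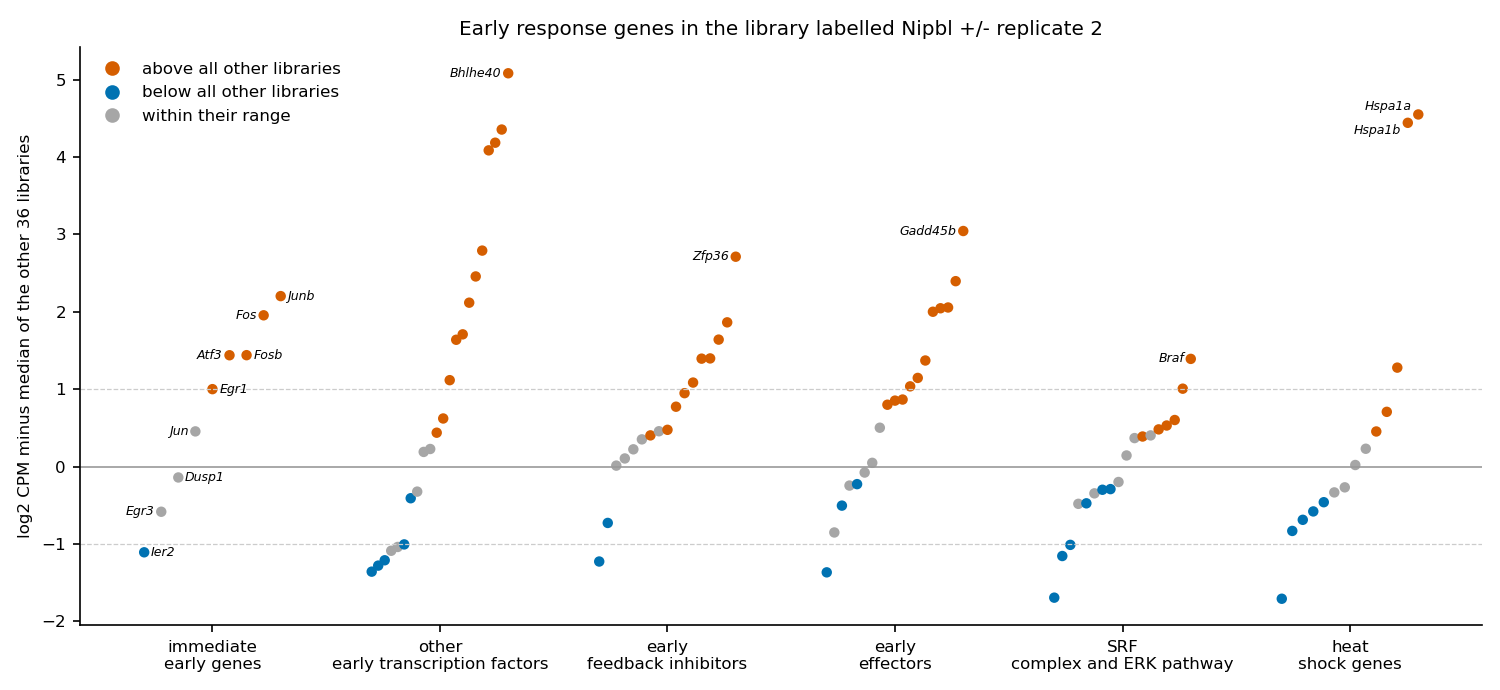
Log2 CPM of the library labelled Nipbl +/- replicate 2 minus the median of the other 36 libraries (y axis), for tested genes of 6 lists ordered by value within each list; orange is above all 36, blue below all 36, grey within their range and dashed lines mark 2-fold. Junb leads the immediate early genes, Ier2 is at their foot, and Bhlhe40, Hspa1a and Hspa1b are the highest points.

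Other features moved with that library, and their part in these values was not tested. Its 7 erythroid markers summed to 497.2 CPM, the lowest of 37 (818.1 to 105500 elsewhere), and its 7 macrophage markers to 26.3 CPM, the highest (2.877 to 15.58). Cushion mesenchyme (301.8 CPM) and neural markers (19.06 CPM) were also the lowest, while cardiomyocyte markers at 35990 CPM were within the range. The 3693 longest of the genes tested held 284800 CPM, more than in any other library (183400 to 246000). In whole hearts, fewer cells of a type and less RNA per cell cannot be told apart.

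Against the genotype background, 3 genes of the wider lists were called with all libraries. Ier5l, an early gene of the IER5 family, fell in double heterozygous hearts (log2 change -0.48, SE 0.11, adjusted p = 0.00841, edgeR), from a wild-type range of 14.35 to 23.01 CPM (median 17.56) to 9.909 to 13.49 (11.96). Csrnp1, a nuclear protein gene induced by AXIN, rose there (0.32, SE 0.08, adjusted p = 0.0207), from 9.295 to 12.51 CPM (10.68) to 12.74 to 16.29 (13.66). In both genes all 9 double heterozygous libraries lay outside the wild-type range, as in 0.405% of all genes, but that separation takes no account of set. Set 1 holds wild-type and no double heterozygous hearts, and both genes also differed by set in the same direction: Ier5l was at 17.98 to 21.93 CPM in set 1 and lower in set 6 (-0.43, adjusted p = 0.0128, edgeR), and Csrnp1 was at 9.295 to 11.22 CPM in set 1 and higher in set 5 (0.27, adjusted p = 0.024). Within sets 2, 5 and 6, which hold 2, 5 and 1 double heterozygous and 3, 2 and 2 wild-type libraries, neither gene overlapped between the genotypes. In set 5, Ier5l was at 11.0 to 13.15 against 16.95 to 23.01 CPM and Csrnp1 at 13.23 to 16.29 against 10.14 to 12.51. Hspd1, the mitochondrial chaperonin, fell in Nipbl +/- hearts (-0.25, SE 0.06, adjusted p = 0.0158) and in double heterozygous hearts (-0.26, SE 0.06, adjusted p = 0.0097), where 5 of 9 libraries were below every wild-type one. Within set 2 its double heterozygous (715.9 to 772.5 CPM) and wild-type values (766.6 to 907.2) overlapped, and within sets 5 and 6 they did not. These were 2 of 22 early factors and 1 of 14 heat shock genes in double heterozygotes, and 1 of 14 heat shock genes in Nipbl +/- hearts, against 2.6% and 1.71% of all genes called in these comparisons. All 3 genes were also called without the library labelled Nipbl +/- replicate 2. In those comparisons 0 of 17 feedback inhibitors, 0 of 19 effectors and 0 of 18 serum response factor and ERK genes were called by edgeR, nor were any of the 22 early factors in Nipbl +/- hearts, where 8 had an unadjusted p under 0.05 (2267 of all 15046 genes did). For the other 3 lists such p-values numbered 1, 1 and 0 in Nipbl +/- and 0, 1 and 1 in double heterozygous hearts. Summed epicardial markers also separated wild-type (209.0 to 397.1 CPM) from double heterozygous hearts (426.3 to 568.1), with no account of set. The summed cardiomyocyte, endothelial, cushion mesenchyme, erythroid, macrophage, liver and neural markers overlapped. The part of tissue make-up in these gene changes was not tested.

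The effector count depended on the library labelled Nipbl +/- replicate 2. Without it, 3 of 19 effectors fell in Nipbl +/- hearts (2.72% of all genes were called): Gadd45b, Btg2 and Btg1, all growth-arrest genes. Gadd45b had 14.26 to 22.02 CPM in wild-type hearts (median 16.97), 10.74 to 18.39 in the 8 other Nipbl +/- hearts (12.3) and 10.05 to 14.6 in double heterozygous hearts (11.49). Its change in Nipbl +/- hearts was -0.39 (SE 0.10, adjusted p = 0.0177) without the library and 0.42 (adjusted p = 0.594) with it. In double heterozygous hearts it fell by 0.43 on the log2 scale without the library (SE 0.10, adjusted p = 0.00582), against -0.57 (adjusted p = 0.583) with it. Btg2 and Btg1 changed by -0.26 and -0.18 in Nipbl +/- hearts without it (adjusted p = 0.0427 and 0.0494, edgeR). Dusp10, a kinase phosphatase, fell by 0.25 on the log2 scale in double heterozygous hearts on the same terms (adjusted p = 0.0313, 5.57% of all genes called). Against Isl1 +/- hearts, Btg1 fell by 0.23 and Maff rose by 0.37 in double heterozygotes without the library, and Csrnp1 rose by 0.28 (adjusted p = 0.0107, 0.0486 and 0.0138). Apart from Csrnp1, these genes were noted after their values were seen, and comparisons with 1 group in common share its libraries.

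The set number, unlike the genotype, went with 3 of the 9 tested members: Jun (adjusted p = 2.86e-04), Dusp1 (7.15e-04) and Egr1 (0.00724) in edgeR's test of any difference among sets. Over all genes tested 43.0% were called, so this share is not above the background. Without the library labelled Nipbl +/- replicate 2, Junb (0.0054) and Ier2 (0.0177) were called as well, 5 of 9 against 58.7% of all genes. Since set 1 holds wild-type and Isl1 +/- hearts only, the test was repeated in those 2 genotypes, where Jun, Egr1, Dusp1 and Junb passed, 4 of 9 against 39.2% of all genes.

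Jun was lowest in set 1, at 60.58 to 72.95 CPM (median 66.96), with 59.15 to 95.05 (76.52) in set 2, 71.34 to 94.87 (85.17) in the 13 other libraries of set 5 and 84.94 to 114.9 (86.93) in set 6. The library labelled Nipbl +/- replicate 2, also of set 5, had 113.5. Sets 1 and 6 did not overlap, as in 11.0% of all genes tested. The fitted difference from set 1 was 0.47 for set 5 (SE 0.09, adjusted p = 9.31e-04, 22.2% of all genes called) and 0.52 for set 6 (SE 0.10, adjusted p = 2.57e-04, 26.6% called). Double heterozygous replicate 2, the whole of set 7, had 96.69 CPM.

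Egr1 was likewise lowest in set 1, at 6.589 to 9.556 CPM (7.994), against 7.88 to 16.01 (11.49) in set 2, 9.074 to 16.87 (12.06) in set 5 without the library labelled Nipbl +/- replicate 2 (22.04) and 6.569 to 15.85 (10.79) in set 6. Sets overlapped, and the differences called by edgeR were 0.69 for set 2 (SE 0.19, adjusted p = 0.0211, 6.85% of all genes called) and 0.78 for set 5 (SE 0.19, adjusted p = 0.00514). Without set 1 the Egr1 test gave an adjusted p of 0.294. Dusp1 had 17.15 to 21.92 CPM in set 1 (19.65), below all of set 2 (22.49 to 33.86, median 23.71) and all of set 6 (23.62 to 30.61, median 25.76). Sets 2 and 1 did not overlap in 2.72% of all genes. Its differences from set 1 were 0.42 (SE 0.09, adjusted p = 0.00284) and 0.45 (SE 0.10, adjusted p = 0.00101). All 6 member differences called against set 1 were higher values. In set 2 against set 1, leaving out wild-type replicate 3, Isl1 +/- replicate 3 or Isl1 +/- replicate 4 left 1 of the 2 calls (4.74% to 5.31% of all genes called).

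Among the later sets, set 5 differed from set 2 in Jun (0.22) and Dusp1 (-0.19; 33.5% of all genes called), and set 6 from set 2 in Jun (0.26; 23.3%). These small differences held less firmly. Leaving out 1 of wild-type replicate 7, Isl1 +/- replicate 4, 5 or 7, Nipbl +/- replicate 3 or double heterozygous replicate 6 or 8 left 1 call between sets 5 and 2 (19.6% to 34.9% of all genes called). Between sets 6 and 2, leaving out wild-type replicate 6, Nipbl +/- replicate 3 or double heterozygous replicate 7 left 0 (15.6% to 18.5%), leaving out Nipbl +/- replicate 8 left 2 (34.5%) and leaving out the library labelled Nipbl +/- replicate 2 left 3 (37.3%). Set 6 against set 5 gave 0 of 9 (0.93% of all genes called), with 1 member, Dusp1, at an unadjusted p under 0.05 (2520 genes).

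Without the library labelled Nipbl +/- replicate 2, more members differed from set 1, and not all were higher. Set 2 had 3 higher (Jun, Egr1 and Dusp1; 15.9% of all genes called). Set 5 had 3 higher (Jun, Egr1 and Dusp1) and Atf3 lower, at -0.26 (34.1%). Set 6 had the same 3 higher and Ier2 lower, at -0.31 (41.1%). Against set 2, Junb fell in set 5 (-0.28) beside the changes in Jun and Dusp1 (40.2%), and in set 6 Junb (-0.27) and Ier2 (-0.30) fell while Jun rose (37.3%). Set 6 against set 5 again gave 0 of 9 (4.57%).

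**Figure D4:**
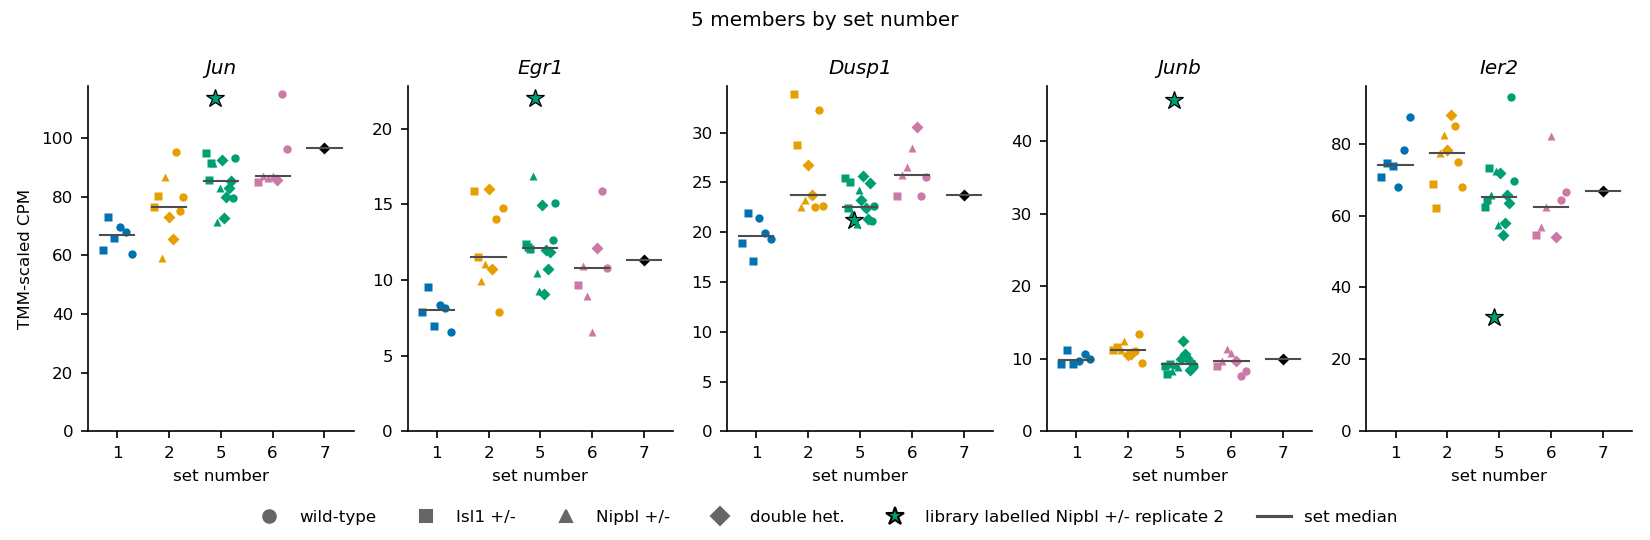
TMM-scaled CPM (linear axis from 0) of Jun, Egr1, Dusp1, Junb and Ier2 by set number; each point is a library, its shape gives the genotype, bars are set medians and the star is the library labelled Nipbl +/- replicate 2. Set 1 has the lowest medians of Jun (66.96), Egr1 (7.994) and Dusp1 (19.65).

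Other signalling genes varied with set to different degrees: 11 of 17 feedback inhibitors, 11 of 18 serum response factor and ERK genes, 6 of 22 early factors, 3 of 19 effectors and 6 of 14 heat shock genes were called by edgeR, where 43.0% of all genes were. Without the library labelled Nipbl +/- replicate 2 these counts were, in the same order, 13, 13, 9, 10 and 12, against 58.7% of all genes. Dusp6, the ERK phosphatase, had the smallest p: 28.74 to 35.41 CPM in set 1 (median 30.2), 30.57 to 42.01 in set 2 (38.73), 36.4 to 49.97 in set 5 (42.14) and 51.76 to 56.11 in set 6 (54.43). Set 6 lay above all libraries of sets 1, 2 and 5. Npas4, an early factor best known from neurons, ran in the opposite direction, at 5.465 to 11.45 CPM in set 1 (8.969) and 1.485 to 4.721 in set 6 (2.222). The other genes with the smallest p were the kinase Rps6ka3, the ERK inhibitor Spred1 and the chaperone genes Dnajb1 and Hspa8. Hspa8 had 2332 to 2842 CPM in set 1 and 1626 to 2060 in set 5.

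Tissue markers also differed by set, and their part in the set differences was not tested. All 6 tested erythroid, all 5 epicardial and 5 of 7 macrophage markers were called in the test of any set difference, where 43.0% of all genes were. So were 6 of 8 cardiomyocyte, 3 of 6 endothelial, 3 of 6 cushion mesenchyme, 3 of 5 neural and 1 of 3 liver markers. Summed erythroid markers had medians of 12630, 23540, 4902 and 15190 CPM in sets 1, 2, 5 and 6, each set ranging widely (818.1 to 23910 in set 1). Endothelial markers summed to 462.3 to 574.2 CPM in set 1 and 567.6 to 822.9 in set 5. Macrophage markers summed to 9.014 to 15.42 CPM in set 2 and 4.423 to 8.824 in set 1, and 78 ribosomal protein genes had medians of 73050 in set 1 and 49680 in set 5.

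The number within a set, whose meaning the labels do not give, went with 0 of the 9 members (0.00665% of all genes called, edgeR). At an unadjusted p under 0.05 there were 2790 of all 15046 genes and 3 of the 9 members: Junb (0.05 log2 units per number, SE 0.01, p = 0.00122, adjusted p = 0.088), Fos (0.04, p = 0.00914) and Atf3 (0.03, p = 0.0131). The library labelled Nipbl +/- replicate 2 bears number 18, and without it the slope of Junb was 0.01 (adjusted p = 0.96) and the other members gave unadjusted p-values of 0.12 or more. Junb passed when set 2 was left out (adjusted p = 0.0263, 10.3% of all genes called) or double heterozygous replicate 8 (adjusted p = 0.0296, 7.34%). Both of these fits still held the library labelled Nipbl +/- replicate 2.

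After genotype and set means were removed, the spread between hearts differed among the members. The residual SD on the log2 scale was 0.16 for both Jun and Dusp1, against 0.25 for the median gene, and 0.59 and 0.60 for Fosb and Egr3. Leaving out the library labelled Nipbl +/- replicate 2 took it from 0.41 to 0.16 for Junb, a 2.63-fold drop, from 0.31 to 0.16 for Atf3 and from 0.44 to 0.27 for Fos. Over all tested genes the median residual SD went from 0.25 to 0.20, and the median of the ratios taken gene by gene was 1.11.

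Correlations between members across libraries are given as descriptions, since the libraries of a set share their set and 1 library weighs heavily. Over 36 pairs of members in 37 libraries, the median Pearson r was 0.15 and 11 pairs (30.6%) exceeded 0.5, against 12.3% of pairs among 1004 genes at large. Without the library labelled Nipbl +/- replicate 2 the median was 0.11 and 3 pairs (8.33%) exceeded 0.5, against 10.0% at large. The 3 pairs were Fos with Fosb (r = 0.57, rho = 0.63), Fosb with Egr1 (0.54, 0.58) and Jun with Egr1 (0.53, 0.48). Fos with Fosb was 0.38, 0.60, 0.61 and 0.88 within sets 1, 2, 5 and 6, and 0.55 without the 2 libraries farthest from the median of Fos. Fos with Junb went from 0.73 to -0.04, and Junb with Ier2 from -0.69 to 0.01. Junb with Egr1 was the lowest, at -0.50 (rho -0.28, and -0.29 without the 2 farthest libraries), with 0.59 in set 1 and -0.65, -0.50 and -0.70 in sets 2, 5 and 6.

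**Figure D5:**
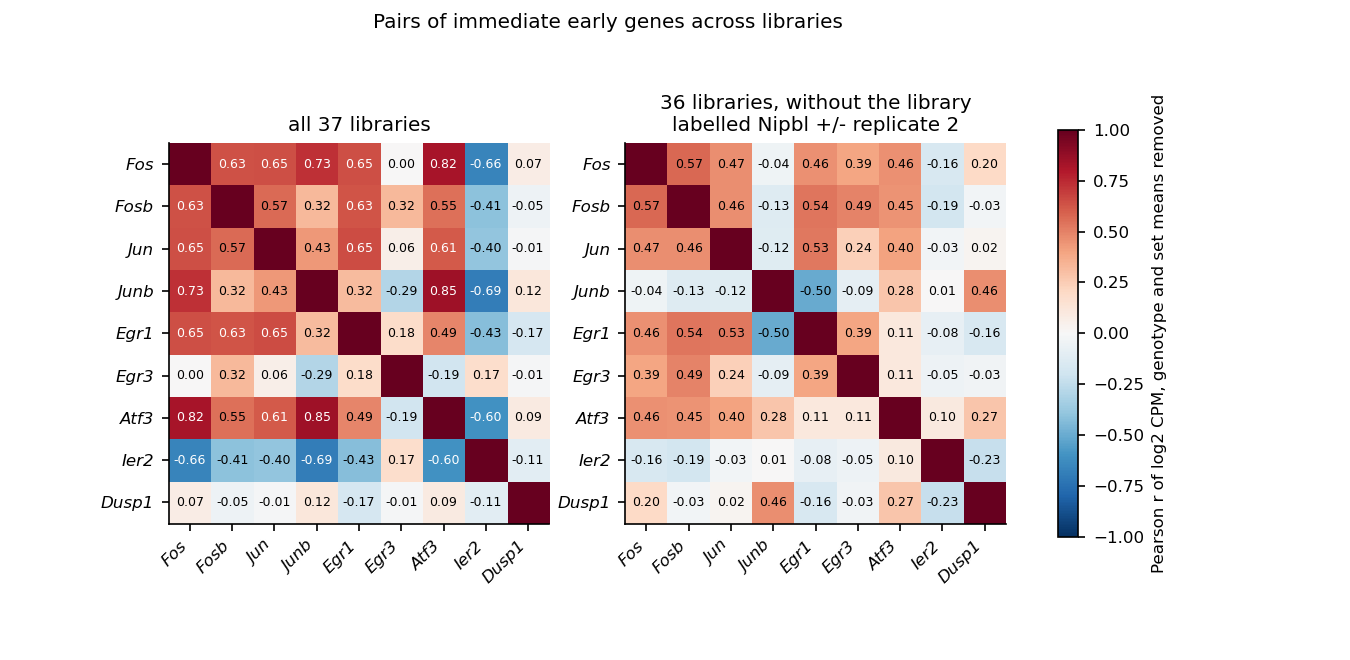
Pearson r of log2 CPM, with genotype and set means removed, for each pair of the 9 tested members; left over 37 libraries and right over 36, without the library labelled Nipbl +/- replicate 2. Junb with Atf3 is 0.85 and Junb with Ier2 -0.69 on the left, and on the right Fos with Fosb is the highest pair at 0.57.

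The genes outside the list whose pattern was most like that of the 9 members, by mean r over 37 libraries, were Vwa5a (0.44), Zfyve16, Wls, Klhl9, Ttc39b, Lipa, Syde2, Fzd1, Prkd1 and Tob1 (0.40). Without the library labelled Nipbl +/- replicate 2 they were Vwa5a (0.36), Rtn4, Rhob, Fgl2, Reep3, Spg20, Ifit2, Itgav, Lipa and Ccn2 (0.32). Vwa5a and Lipa were on both lists. The 10 genes of the first list hold no gene of the wider early response lists, and those of the second hold Rhob and Ccn2, both of the effector list and known targets of serum and stretch signals.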

How the data were processed

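Paired-end RNA-seq of dissected hearts was counted per gene. Per the submitters' processing notes, the tools named were STAR and featureCounts with GRCm38/mm10, with no versions given, and the deposited values are raw counts that the authors left unnormalized. Library kits were NEB, per the labels' protocols. The counts were analysed in edgeR 4.0.16 (R 4.3.3): TMM scaling, filterByExpr by genotype (15046 of 25239 genes kept), genotype and set as factors, quasi-likelihood tests, Benjamini-Hochberg adjustment over all genes tested at 0.05. Plotted log2 CPM used a prior count of 2. DESeq2 1.42.0, other scalings and filters, left-out sets and left-out libraries were alternatives. The fit was tested on simulated data. No 2 libraries of 1 genotype agreed within sampling noise (153 pairs, chi-square over degrees of freedom at least 7.46). The members and all gene lists were chosen with earlier results of these data known. The text names all 10 members; up to 6 called genes of the 5 wider lists per comparison, smallest p first; the 10 genes most alike in pattern; and Nipbl and Isl1. Markers are given as sums.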

Additional observations from a re-analysis of the deposited data

Results flagged for a closer look

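In 40 gene and genotype groups, 4 had 1 library standing apart by Dixon's ratio of gap to range. The nominal rate is about 1 group in 20. Over all genes tested the ratio marked 6.17% in wild-type, 3.92% in Isl1 +/-, 33.8% in Nipbl +/- and 15.2% in double heterozygous hearts. All 4 marks among the members were the library labelled Nipbl +/- replicate 2 among the 9 Nipbl +/- libraries, 4 of 10 members. The same ratio marked that library in 29.7% of all 15046 genes tested, so such marks are common there and not particular to the members. It was the highest for Junb (ratio 0.765), Atf3 (0.729) and Fos (0.671) and the lowest for Ier2 (0.607). Its Nipbl level of 72.42 CPM goes against its label. What sets it apart was not tested.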

How the results depend on the processing

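Every one of the 7 genotype results stayed at 0 members called in each setting run, the left-out libraries included; the smallest adjusted p was 0.109, for Jun in double heterozygotes without the library labelled Nipbl +/- replicate 2. Over the members' single values 6142 of 6198 kept their side of the threshold, 18 lost and 38 gained a call. Of the values called in either fit 0 reversed, and direction was not counted for the others. With 1 library left out, the uncalled Fos change in Nipbl +/- hearts against wild-type ran from -0.24 to 0.19 on the log2 scale. The counts of members called moved in the set tests. Replicate numbers do not pair the samples: over 54 same-numbered pairs the lowest correlation was -0.449 and the median 0.0279, against -0.0128 for other pairs, and 3 of 37 libraries correlated best with their own number. With the replicate block added to the set term, 5 members were called for any set (3 without it; 45.1% of all genes with the block, 43.0% without), 0 for set 2 against 1 (2; 0.0133% and 6.85%), 4 for set 5 against 1 (2; 38.1% and 22.2%), 4 for set 6 against 1 (2; 34.0% and 26.6%) and 2 for set 6 against 2 (1; 31.5% and 23.3%). So the share of all genes moved the same way as the members' count in each. With no filter on low counts, set 5 against 2 had 1 (22.1% of all genes; 2 and 33.5% with it), and without set 6 it also had 1 (31.2%). Without set 5, any set had 5 (46.1%), set 6 against 1 had 4 (40.3%) and set 6 against 2 had 3 (34.1%). Without set 2, 1 member, Junb, went with the number in the set (10.3%, against 0 and 0.00665% with set 2). That fit still held the library labelled Nipbl +/- replicate 2. Leaving out 1 library each gave 3 to 5 for any set (34.4% to 58.7% of all genes), 1 to 3 for set 2 against 1 (4.7% to 15.9%), 2 to 4 for both set 5 (11.5% to 34.1%) and set 6 (20.3% to 41.1%) against 1, 1 to 3 for set 5 against 2 (19.6% to 40.2%), 0 to 3 for set 6 against 2 (15.6% to 37.3%), 0 to 0 for set 6 against 5 (0.0199% to 4.57%) and 0 to 1 for the number in the set (0.0% to 7.34%). Alternatives added after the data were seen were the 10 most alike genes and the number in the set without 1 library, sets in 2 genotypes, and set 5 as reference for that library. The causes were not tested. Depth limits Egr2, Egr3 and Fosb, which had 1, 2 and 4 reads in their lowest libraries.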
